A study of Arabidopsis thaliana with 12 samples.

Results

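Genes of the plastid genome were examined in roots of Arabidopsis thaliana seedlings 6 days after germination. The members were all gene identifiers beginning with ATCG in any of the authors' 5 tables of comparisons, which gave 39 genes among the 8607 genes listed in at least 1 table. They comprised 33 protein genes and 6 transfer RNA genes, out of 129 genes that the RefSeq annotation of assembly TAIR10.1 places on the plastid genome. The other annotated plastid genes were in none of the 5 tables, and no value for them was used here. A table lists a gene only when its adjusted p is under 0.1, so being a member already means that the gene came near or past a test threshold, and the members are not a sample of all plastid genes.

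Col-0 seedlings of the wild type (WT) and Col-0 seedlings labelled trm4b-1 were grown on half-strength MS plates without paraquat (control) or with 0.01 uM paraquat, and whole roots were harvested. Paraquat is a herbicide that takes electrons from photosystem I and other donors and passes them to oxygen, which yields superoxide. TRM4B is an RNA methyltransferase that makes 5-methylcytosine, and a mutant allele named for it defines the second genotype. Each of the 4 groups had 3 replicates, called biological in the series' design text. Total RNA was depleted of ribosomal RNA before sequencing, so transcripts without a poly(A) tail, which include most plastid RNAs, could enter the libraries. The RNA of TRM4B itself was raised rather than reduced under the trm4b-1 label, by a log2 value of 2.89 ± 0.08 on control medium in the authors' deposited table (adjusted p = 5.64e-12, limma). Every genotype direction below is therefore that of the libraries so labelled.

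The tables hold no values per sample. The depth of the libraries, the reads behind each gene and the place of each replicate are unknown, and whether any value rests on 1 library could not be examined. Fold changes are log2 values of paraquat over control, each ± is a standard error that was worked back from a gene's fold change and p. The words "rose", "fell" and "changed" are kept for an adjusted p under 0.05, as deposited by the authors (limma, Benjamini-Hochberg adjustment over 33602 genes). "Listed" means an adjusted p under 0.1. A value for whole-root RNA does not separate fewer plastids or fewer cells from less RNA in each.

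Plastids descend from a cyanobacterium and keep a small circular genome of 154478 base pairs. It encodes subunits of the photosynthetic complexes and of Rubisco, subunits of an NADH dehydrogenase-like complex, part of the plastid ribosome, transfer and ribosomal RNAs, and the core of a bacterial-type RNA polymerase. That polymerase, called the plastid-encoded polymerase, needs nuclear sigma factors and transcribes photosynthesis genes and most transfer RNAs in chloroplasts. A phage-type polymerase encoded in the nucleus transcribes housekeeping genes, among them the rpoB operon, and does so in non-green plastids such as those of roots. Many plastid genes lie in operons, whose long transcripts are cut by nuclear-encoded RNA-binding proteins and nucleases.

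The sequences that the results turn on are those of the 6 transfer RNA genes, each listed lower in 1 of the genotypes, of the RNA of psbN, listed in both genotypes, of rpl36, which had the lowest adjusted p of a rise, and of a stretch that belongs to both rpl22 and rps3. They were read from the RefSeq plastid genome of TAIR10.1, at coordinates that 37 of the 39 members share to the base with the authors' TAIR10 tables. For ycf3 and ndhB only the start and strand are shared, since the tables give them a shorter model. All 33 protein members end in a stop codon at the deposited coordinates. In the transfer RNAs the capitals mark the anticodon, found as 3 bases for the annotated amino acid, flanked by T and a purine, inside a stem of 5 pairs.
trnH: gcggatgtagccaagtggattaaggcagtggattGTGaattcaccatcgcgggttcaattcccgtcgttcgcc
trnE: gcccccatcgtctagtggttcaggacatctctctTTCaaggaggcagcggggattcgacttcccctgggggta
trnF: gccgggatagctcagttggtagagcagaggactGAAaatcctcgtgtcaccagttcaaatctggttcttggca
trnG: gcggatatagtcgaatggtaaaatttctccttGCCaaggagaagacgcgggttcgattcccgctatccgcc
trnW: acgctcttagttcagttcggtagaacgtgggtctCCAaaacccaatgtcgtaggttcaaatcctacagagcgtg
trnP: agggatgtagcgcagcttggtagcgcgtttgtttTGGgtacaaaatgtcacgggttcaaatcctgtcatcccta
In psbN and rpl36 the capitals mark the start and stop codons.
psbN: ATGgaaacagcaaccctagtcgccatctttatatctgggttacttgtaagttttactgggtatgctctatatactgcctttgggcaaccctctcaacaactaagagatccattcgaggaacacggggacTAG
rpl36: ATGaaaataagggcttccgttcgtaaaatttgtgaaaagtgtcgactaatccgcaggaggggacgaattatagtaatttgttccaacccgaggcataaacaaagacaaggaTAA
The last sequence runs from the end of rpl22 into the start of rps3, with the 16 bases that lie in both genes in capitals and 20 bases on either side.
rpl22-rps3: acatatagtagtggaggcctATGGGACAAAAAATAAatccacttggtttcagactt

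In WT roots on paraquat, the plastid genes that rose were 3 for subunits of the RNA polymerase, 8 for ribosomal proteins, ycf3 and ndhH, and those that fell were rbcL, psbN and 3 transfer RNA genes. Of the 39 members 37 were listed in the authors' deposited table of this comparison, 30 higher and 7 lower. Of these, 13 rose and 5 fell. The 37 listed genes are 28.7% of the annotated plastid genes, against 21.6% of all tested genes, though how many of the annotated genes were tested is not known. The 18 changed genes are 14.0% of the annotated plastid genes, against 17.0% of all tested genes called in this comparison. The 13 rises are 10.1% of the annotated plastid genes against 7.99% of all tested genes, and the 5 falls are 3.88% against 9.01%. At the threshold for a call the plastid genome thus had a share of rises near that of all genes. Within the wider list, the 30 higher members are 23.3% of annotated plastid genes against 10.3% of tested genes, and the 7 lower ones 5.43% against 11.3%. The median listed value was 1.15 for the 37 plastid genes and -0.26 for all 7253 genes listed in WT. Only genes past the listing limit enter these medians. The listed plastid genes had a median standard error of 0.44, against 0.15 for all listed genes, and a larger error requires a larger change to be listed.

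**Figure D1:**
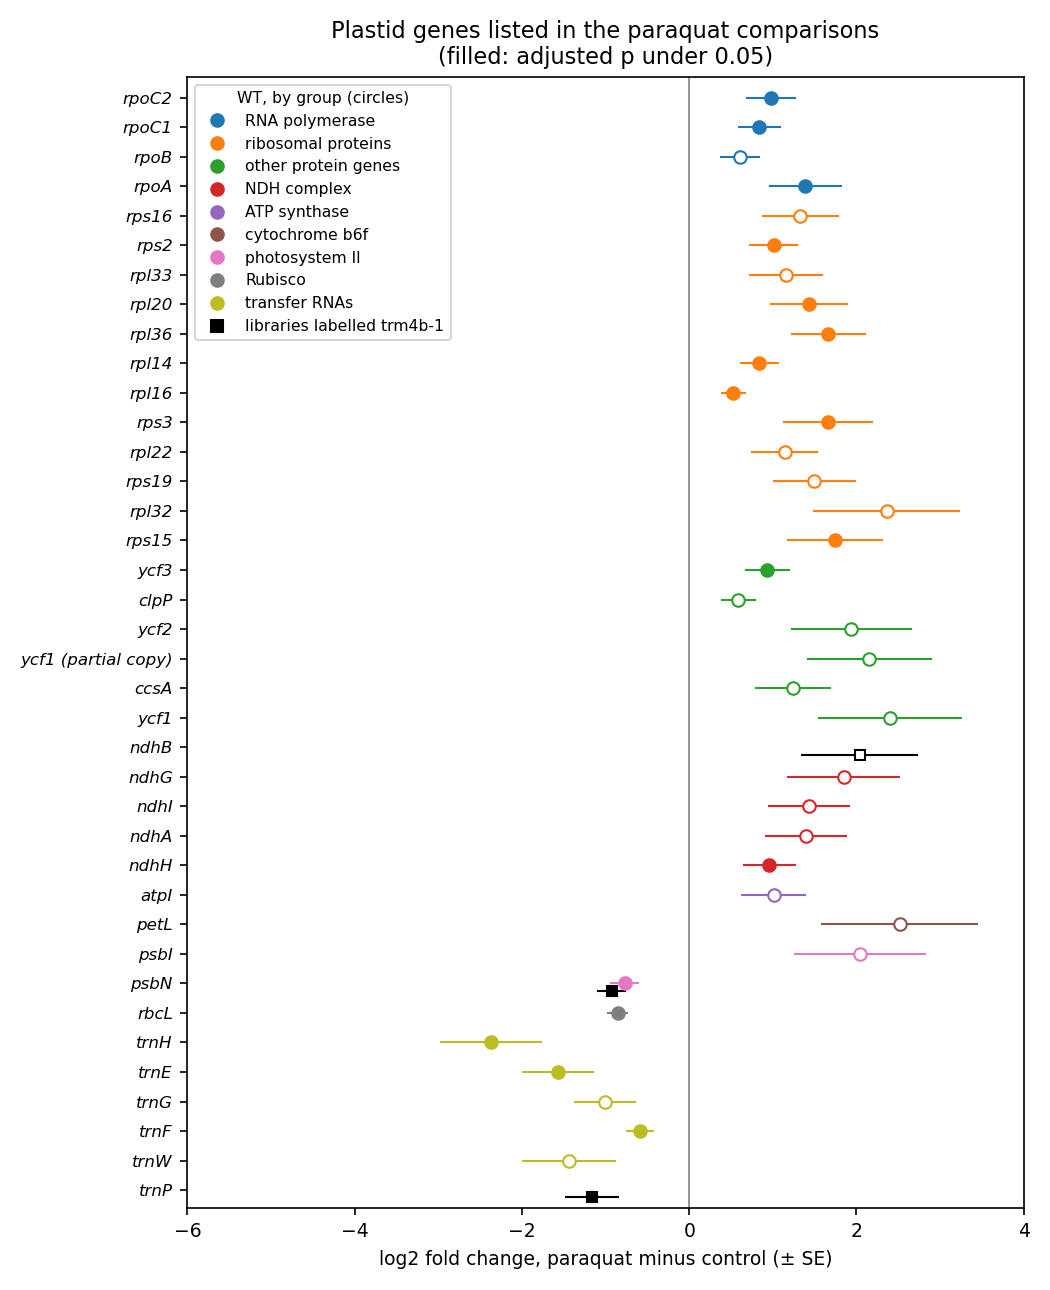
Log2 fold change (paraquat minus control, ± SE) of the plastid genes named in the text, in each comparison that lists them, as circles coloured by functional group for WT and black squares for the libraries labelled trm4b-1; filled symbols have an adjusted p under 0.05. All polymerase and ribosomal protein genes listed lie right of 0, and rbcL, psbN and the transfer RNAs lie left of it.

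All 4 genes of the plastid-encoded RNA polymerase were listed higher in WT, and 3 of them, or 75.0%, rose, beside 7.99% of all tested genes. Its alpha subunit gene rpoA (ATCG00740, Pt:77901-78890, minus strand) rose by 1.39 ± 0.44 in the authors' deposited table, which is 2.61-fold (adjusted p = 0.0396, limma). The genes of the beta' and beta'' subunits, rpoC1 and rpoC2, rose by 0.84 ± 0.26 and 0.98 ± 0.30 in that deposited table. The beta subunit gene rpoB, first in the operon that holds them, had 0.61 ± 0.23 (adjusted p = 0.0958, limma) in the authors' deposited table and did not pass.

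Ribosomal protein genes were the most numerous group. Of 25 annotated, 13 were listed, all higher, and 8, or 32.0%, rose, beside 7.99% of all tested genes. The large-subunit gene rpl36 (ATCG00760, Pt:79489-79602, minus strand, a single exon of 114 bases printed above) rose by 1.66 ± 0.45 in the authors' deposited table, or 3.17-fold, with an adjusted p of 0.0170 (limma), the lowest of any plastid rise. The small-subunit gene rps15 (ATCG01120, Pt:123296-123562, minus strand) had the largest passing rise, 1.75 ± 0.58 or 3.35-fold (adjusted p = 0.0492, limma, the authors' deposited table). It is also the member just inside the threshold, with rps19 just outside it at 1.50 ± 0.50 (adjusted p = 0.0511, limma, the authors' deposited table). The small-subunit gene rps3 (ATCG00800, Pt:82826-83482, minus strand) rose by 1.66 ± 0.54 (adjusted p = 0.0448, limma, the authors' deposited table).

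Other rises of this group ranged from rpl16 at 0.53 ± 0.15 to rpl20 at 1.44 ± 0.47 in the authors' deposited table, with rpl14 at 0.84 ± 0.23 and rps2 at 1.01 ± 0.29 between them. The smallest rise therefore had the smallest standard error of the 30 higher members. The 5 listed members that did not pass were rps16, rpl22, rpl33, rps19 and rpl32, from 1.14 ± 0.40 for rpl22 to 2.36 ± 0.88 for rpl32 in the authors' deposited table. The genes rps3 and rpl22 overlap by the 16 bases shown above, so reads over that stretch cannot be assigned to either.

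Among the other protein genes, ycf3, which encodes an assembly factor of photosystem I, rose by 0.93 ± 0.27 in the authors' deposited table (adjusted p = 0.0248, limma). The remaining 5 of this group were listed higher without passing. They were clpP, the plastid-encoded subunit of the Clp protease, at 0.58 ± 0.21, ccsA, for the attachment of haem to c-type cytochromes, at 1.24 ± 0.45, and ycf2, linked to the protein import motor of the inner envelope, at 1.94 ± 0.72, in the authors' deposited table. The protein import gene ycf1 had 2.40 ± 0.86 and its partial copy at the border of the inverted repeat 2.15 ± 0.75 in the same deposited table. These last entries are not independent, because 1030 bases are identical between the partial copy and the full gene.

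Of the genes of the NADH dehydrogenase-like complex, which cycles electrons around photosystem I, 4 of 12 annotated were listed in WT, all higher, and 1 rose. That 1 is 8.33% of them, about the 7.99% of all tested genes that rose. It was ndhH at 0.96 ± 0.31 in the authors' deposited table (adjusted p = 0.0466, limma). Its neighbours ndhA, ndhI and ndhG had 1.39 ± 0.49, 1.43 ± 0.49 and 1.85 ± 0.67 in the authors' deposited table, with adjusted p values of 0.0632, 0.0561 and 0.0767 (limma).

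Few genes of the other thylakoid complexes were listed. Of 5 photosystem I genes none was listed, of 15 photosystem II genes 2 were (13.3%), of 6 cytochrome b6f genes 1 and of 6 ATP synthase genes 1 (16.7% each), beside 21.6% of all tested genes. The small photosystem II subunit gene psbI had 2.04 ± 0.79, the small cytochrome b6f subunit gene petL 2.52 ± 0.94, the largest value of any member, and the membrane subunit gene atpI 1.01 ± 0.39 in the authors' deposited table, and none of these passed.

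The gene rbcL, for the large subunit of Rubisco, the enzyme that fixes carbon dioxide, gave the clearest change of any member. It lies at Pt:54958-56397 on the plus strand (ATCG00490, 1 exon of 1440 bases). In the authors' deposited table it fell by 0.85 ± 0.12, to 0.553 of control, with an adjusted p of 0.000185 (limma). Its standard error was the lowest of the 37 listed plastid genes and the only one below the median of all listed genes. The gene psbN (ATCG00700, Pt:74249-74380, minus strand), for a small protein needed to assemble photosystem II, had -0.77 ± 0.18 in the authors' deposited table, 0.585 of control (adjusted p = 0.00614, limma). It lies 65 bases from psbT and 104 bases from psbH, both on the opposite strand, and these neighbours were not listed. Whether counting used strand is not given in the sources used here, so reads of transcripts that cross psbN from the opposite strand cannot be told apart from its own.

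Transfer RNA genes were listed on the lower side only, 5 of 37 annotated in WT, of which 3 fell. These shares, 13.5% listed lower and 8.11% fallen, are near the 11.3% and 9.01% of all tested genes, so the counts are not a result about transfer RNA genes as a group. The histidine gene trnH (ATCG00010, Pt:4-76, minus strand) had the largest fall, -2.37 ± 0.61 or 0.193 of control, in the authors' deposited table (adjusted p = 0.0130, limma). The glutamate gene trnE (ATCG00250, Pt:30466-30538, minus strand) came next at -1.57 ± 0.43 or 0.337 of control in the authors' deposited table (adjusted p = 0.0197, limma). Its product serves translation and is also the substrate from which plastids start the synthesis of chlorophyll and haem. The phenylalanine gene trnF had -0.59 ± 0.17 in the authors' deposited table (adjusted p = 0.0253, limma). The glycine gene trnG and the tryptophan gene trnW had -1.01 ± 0.37 and -1.44 ± 0.56 in the authors' deposited table and did not pass. None of the 7 annotated plastid ribosomal RNA genes was listed, and ribosomal RNA had been depleted.

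Many of the listed genes were neighbours in the genome. Taking the 129 annotated genes in order, 18 of the 30 higher members formed 3 unbroken runs of neighbours on the minus strand. The first run held rpoB, rpoC1, rpoC2, rps2 and atpI (Pt:14021-26329), with values from 0.61 to 1.01 in the authors' deposited table, and 3 of the 5 rose. The second held the 7 ribosomal protein genes from rps19 to rpl36 (Pt:79489-84283), with values from 0.53 to 1.66 in the authors' deposited table, and 5 rose. The third held ycf1, rps15, ndhH, ndhA, ndhI and ndhG (Pt:118377-129244), with values from 0.96 to 2.40 in the authors' deposited table, and 2 rose. Neighbouring plastid genes can share transcripts, so the members of a run are not independent measurements. All 13 rises were of genes on the minus strand, which carries 78 of the 129 annotated genes, whereas the 17 higher members that did not pass were 10 on the minus and 7 on the plus strand. The 7 lower members formed no run of neighbours.

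**Figure D2:**
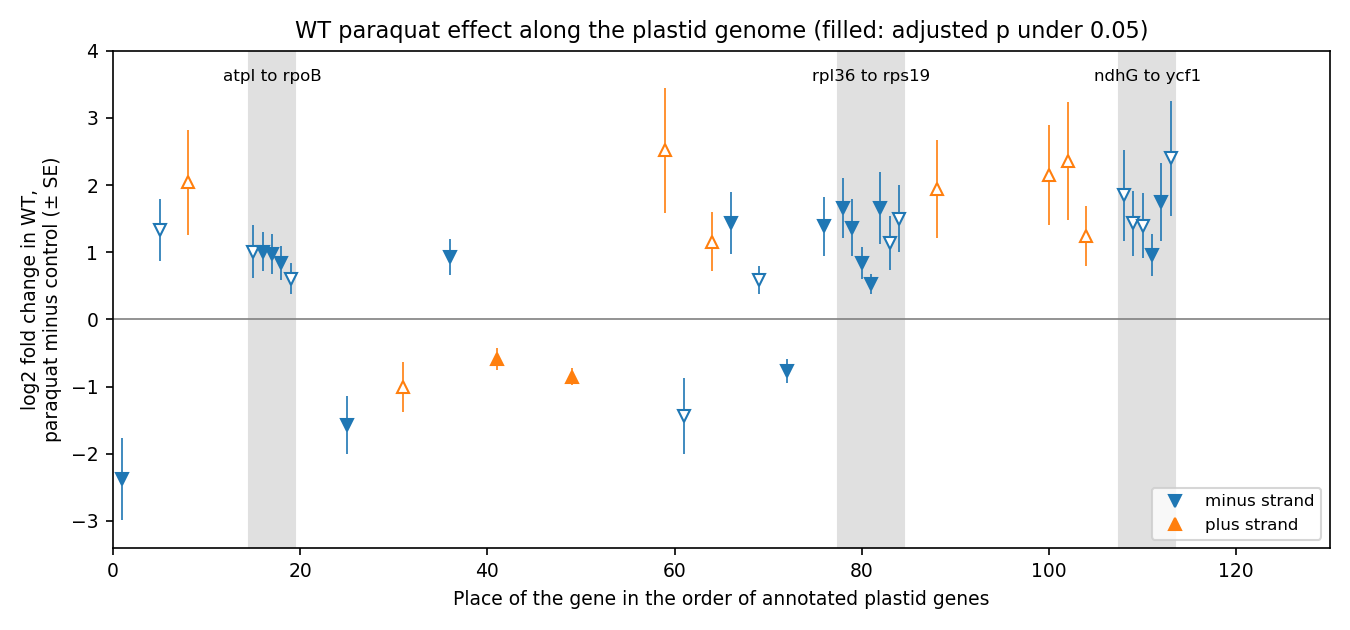
Log2 fold change in WT (paraquat minus control, ± SE) of the 37 listed plastid genes against their place in the order of the 129 annotated plastid genes, with triangles pointing down for the minus and up for the plus strand and filled symbols for an adjusted p under 0.05. The 3 grey bands mark the runs from atpI to rpoB, rpl36 to rps19 and ndhG to ycf1, in which every gene was listed higher.

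Length and base composition differed between the directions. The 30 higher members had a median exon length of 525 bases and a GC content of 28.7% to 40.9%. The 7 lower members had a median length of 73 bases and a GC content of 44.0% to 58.9%, so that the ranges of GC content did not overlap. However, 5 of the 7 lower members were transfer RNA genes and all 30 higher members were protein genes. The contrast is thus mostly one of transfer RNA genes against protein genes. The 129 annotated plastid genes had a median length of 369 bases with introns included, and 50 of them were shorter than 200 bases. The lower members with longer sequences, psbN at 44.7% and rbcL at 44.0%, had the lowest GC contents among them. The part of length and base composition in these values was not tested.

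Standard errors of the listed plastid genes were large. Their median in WT was 0.44, against 0.15 for all 7253 listed genes and 0.22 for the 56 listed genes of the mitochondrial genome, and 36 of 37 exceeded 0.15. The 30 higher members had fold changes of 2.58 to 3.70 times their standard errors, close to the limit for being listed, and the 3 largest values, of petL, ycf1 and rpl32, had the 3 largest errors. The 7 lower members had 2.56 to 6.86 times, with rbcL at the top. The other annotated plastid genes have no standard error here. Those 3 values are less certain than the smaller change of rbcL.

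**Figure D3:**
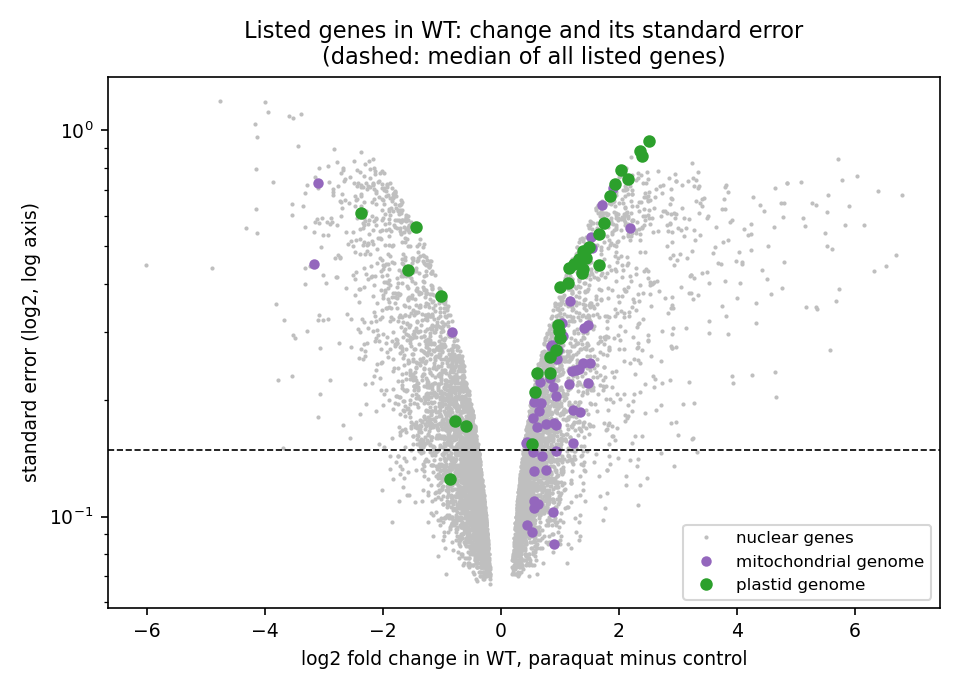
Standard error (log axis) against log2 fold change in WT (paraquat minus control) for all 7253 listed genes, with plastid genes in green, mitochondrial genes in purple and nuclear genes in grey. The 30 higher plastid genes lie near the outer edge set by the listing limit, while rbcL, at 6.86 times its standard error, lies away from it. Of the plastid genes, 36 of 37 lie above the dashed median of 0.15.

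Some members have near-identical copies elsewhere with which reads could be shared. In the TAIR10.1 genome, matches of at least 95% identity covered at least 90% of trnH and trnW in the mitochondrial genome and of atpI, rps2, trnE and trnW in the nuclear genome. For trnH the mitochondrial copy had 3 differences over 74 aligned bases, and for trnW it had 0 over 73. Of rbcL, 39.8% was covered by a mitochondrial stretch of 97.2% identity and 44.7% by nuclear matches of at least 95% identity. Of the partial ycf1, matches of at least 95% identity covered 51.6% in the mitochondrial and 55.7% in the nuclear genome. The genes ycf2 and ndhB and the partial ycf1 have a second copy in the plastid genome itself. How the authors treated reads that map to several places is not given in the sources used here, and values for these members are uncertain.

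In the libraries labelled trm4b-1 3 plastid genes were listed with paraquat in the authors' deposited table, of which 2 fell and none rose. The 3 listed genes are 2.33% of the annotated plastid genes, against 12.2% of all tested genes. The 2 changed ones are 1.55%, against 9.05% of all tested genes called, of which 4.72% were higher and 4.33% lower. The gene psbN fell again, by 0.93 ± 0.18 in the authors' deposited table (adjusted p = 0.00258, limma). The proline gene trnP (ATCG00620, Pt:66490-66563, minus strand) had -1.16 ± 0.32 in the authors' deposited table (adjusted p = 0.0306, limma) and was not listed in WT. The gene ndhB, for a membrane subunit of the NADH dehydrogenase-like complex, had 2.04 ± 0.70 in the authors' deposited table (adjusted p = 0.0894, limma), did not pass and was not listed in WT either.

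**Figure D4:**
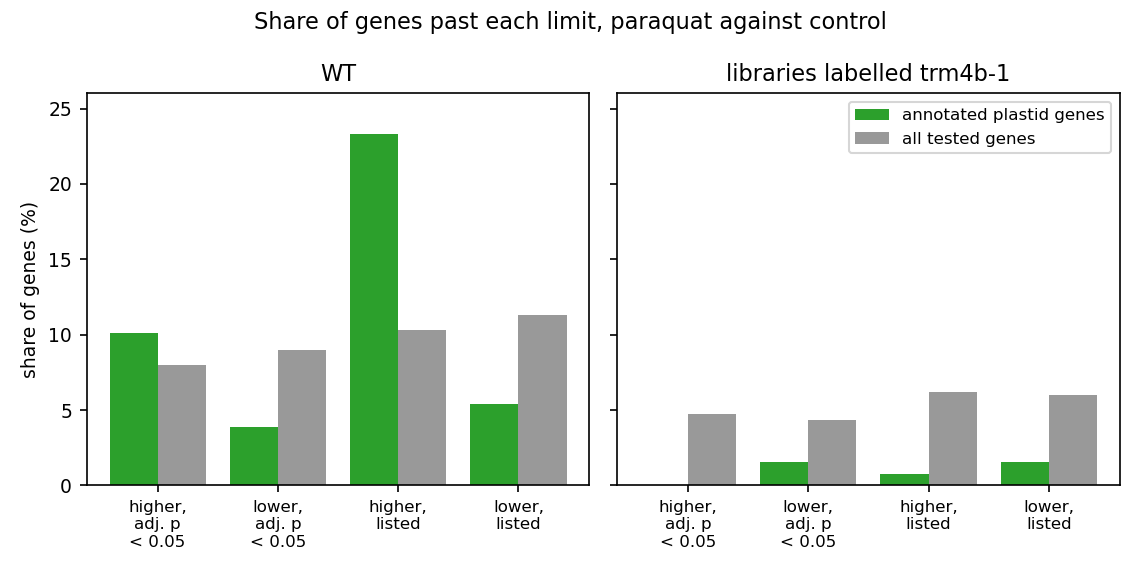
Share of genes (%) that were higher or lower with paraquat at an adjusted p under 0.05 or that were listed at all (adjusted p under 0.1), for the 129 annotated plastid genes (green) and all 33602 tested genes (grey), in WT and in the libraries labelled trm4b-1. In WT 23.3% of plastid genes were listed higher against 10.3% of all genes, while in the libraries labelled trm4b-1 the plastid shares were 0.775% against 6.20%.

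The difference between the genotypes was not shown for any plastid gene. In the authors' deposited table of the interaction, which tests whether the paraquat effect differs between the genotypes, 0 plastid genes were listed (limma, 0.318% of all tested genes called and 0.943% listed). For psbN, the only gene listed in both paraquat comparisons, the effect in the libraries labelled trm4b-1 minus that in WT was -0.16 ± 0.25, with a 95% interval from -0.69 to 0.37. Its p, adjusted by the Benjamini-Hochberg method over the 2887 genes listed in both, was 0.849 (two-sided, rebuilt from the limma values at 15.3 degrees of freedom). For rbcL, which was not listed in the libraries labelled trm4b-1, a bound can be given. A gene was listed there only with an unadjusted p up to 0.0122. With the standard error it had in WT, its effect would have lain within 0.35 of 0, or within 0.38 with a standard error larger by the 95th percentile ratio of 1.10 between the comparisons. The WT value of -0.85 lies outside both. The interaction of rbcL was not listed. Genes were listed for the interaction only with an unadjusted p (limma) up to 0.000936, so that smaller differences would not appear. At the WT standard error, a WT effect lies outside such a bound whenever its own unadjusted p in WT was under 0.0122. The bounds are therefore no test of a difference between the genotypes. The counts of 18 changed genes in WT and 2 in the other comparison are thus no test of a difference between the genotypes.

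In the direct comparisons of the genotypes, the authors' deposited tables listed 0 plastid genes on control medium (limma, 2.03% of all tested genes called and 3.65% listed) and 0 on paraquat (limma, 0.143% called and 0.223% listed). Genes were listed there with unadjusted p values up to 0.00364 and 0.000202, so that smaller differences would not appear, and the number of plastid genes with an unadjusted p under 0.05 cannot be had from these tables.

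Nuclear genes whose products act on the plastid genome or work together with its products were taken from lists drawn up for this purpose. The lists were chosen with earlier results of these data known, so their shares describe the chosen genes and are no test. Whether low genes were removed is not given, so all tested genes may include genes with little RNA in roots, which could hardly be called. Of 8 nuclear RNA polymerases and sigma factors of plastids, 2 rose and 2 fell in WT, 25.0% each way, beside 7.99% and 9.01% of all tested genes. The sigma factor gene SIG5, known to respond to stress, rose by 0.58 ± 0.10 and RPOTMP, a phage-type polymerase of mitochondria and plastids, by 0.54 ± 0.13 according to the authors' deposited table. SIG6 and SIG2, known for chloroplast development and, for SIG2, transcription of transfer RNA genes such as trnE, had -1.57 ± 0.25 and -0.66 ± 0.15 in the authors' deposited table. RPOTP, the phage-type polymerase of plastids, had 0.27 ± 0.10 (adjusted p = 0.0776, limma) in the authors' deposited table for WT. Under the trm4b-1 label it rose by 0.34 ± 0.09 (adjusted p = 0.0296, limma, the authors' deposited table). In those libraries 3 of the 8 rose (37.5%, beside 4.72% of all tested genes) and none fell, with SIG5 at 0.81 ± 0.10 and RPOTMP at 0.63 ± 0.12 in the authors' deposited table. SIG6 was listed lower there without passing, at -0.72 ± 0.25 (adjusted p = 0.0986, limma, the authors' deposited table).

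Of 14 genes for plastid RNA processing and decay, 1 rose and 5 fell in WT, which is 7.14% and 35.7%, beside 7.99% and 9.01% of all tested genes. MRL1, a protein that stabilises rbcL RNA, had -1.28 ± 0.20 and the RNA-binding protein gene CP29A -1.52 ± 0.18 in the authors' deposited table. CSP41A, an RNA-binding protein of chloroplasts, had -1.42 ± 0.39, the nuclease gene RNE -0.77 ± 0.18 and the polynucleotide phosphorylase gene PNP -0.31 ± 0.10, while HCF145 rose by 0.41 ± 0.13, in the authors' deposited table. Under the trm4b-1 label 1 of the 14 rose and 2 fell (7.14% and 14.3%, beside 4.72% and 4.33% of all tested genes), with MRL1 at -1.18 ± 0.21 and CP29A at -1.08 ± 0.18 in the authors' deposited table. Of 12 proteins associated with the plastid-encoded polymerase 1 fell in each genotype, PTAC6 at -1.04 ± 0.14 in WT and -1.07 ± 0.15 in the libraries labelled trm4b-1 in the authors' deposited tables. That 1 is 8.33% of the list, near the 9.01% of all tested genes that fell in WT, and beside 4.33% in the libraries labelled trm4b-1.

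A list of 22 nuclear genes held other subunits of the complexes with plastid-encoded subunits, and PETE2 for plastocyanin, an electron carrier and not such a subunit. In WT 18 of the 22 fell, PETE2 among them, and none was higher. In the libraries labelled trm4b-1, 5 of the 22 fell and none was higher. The falls are 81.8% and 22.7% of the list, beside 9.01% and 4.33% of all tested genes. In WT the Rubisco small subunit gene RBCS1A had -1.85 ± 0.37 and the photosystem I genes PSAD1 and PSAF -2.39 ± 0.30 and -1.73 ± 0.20 in the authors' deposited table, where the median of all listed genes was -0.26. On control medium 2 of the 22 were lower under the trm4b-1 label at an adjusted p under 0.05, beside 1.19% of all tested genes, and none was higher. They were RBCS1A at -1.87 ± 0.36 (adjusted p = 0.0156, limma) and PSAF at -0.78 ± 0.17 (adjusted p = 0.0308, limma) in the authors' deposited table. PSBO1 and ATPD were listed lower there without passing. The genes of this list are also markers of green tissue, and the part of green tissue in the values of rbcL was not tested. Of 10 nuclear partners of the plastid Clp protease and acetyl-CoA carboxylase, none rose and 2 fell in WT (beside 9.01% of all tested genes), CLPC1 at -0.54 ± 0.10 and CAC3 at -0.80 ± 0.11 in the authors' deposited table, and none changed in the libraries labelled trm4b-1. The interaction was called for CAC3, the carboxyltransferase alpha subunit of that carboxylase, at 0.86 ± 0.15 (adjusted p = 0.0191, limma, the authors' deposited table), and for no other gene of these 5 lists. PSAD1 and PSBR were listed for the interaction without passing. They had 1.73 ± 0.39 (adjusted p = 0.0768, limma) and 0.76 ± 0.17 (adjusted p = 0.0801, limma) in the authors' deposited table.

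For the mitochondrial genome the counts were as follows. In WT 45 mitochondrial genes rose and 2 fell, and in the libraries labelled trm4b-1 44 rose and none fell, with median listed values of 0.90 and 0.95 in the authors' deposited tables. The plastid genome had 13 and 5 in WT and 0 and 2 in the libraries labelled trm4b-1. In all tested genes 7.99% rose and 9.01% fell in WT, and 4.72% and 4.33% in the libraries labelled trm4b-1. How many genes of either organelle genome were tested is not known, so the counts of the genomes cannot be compared as shares, and the difference between them was not tested.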

How the data were processed

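RNA from 12 root samples, 3 in each of 4 groups, was sequenced by the authors. Per the submitters' processing notes, Trimmomatic, TopHat and limma were used with genome build TAIR10. How reads were counted and normalized, whether strand was used and whether low genes were removed is not given in the sources used here. Per the file headers, the 5 deposited tables give each listed gene's exon coordinates, log fold change, p-value, Benjamini-Hochberg adjusted p and Storey q-value. The deposited fold change is read as log2, limma's convention, since no base is named. They hold no values per sample, so depth is unknown.

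The 33602 tested genes were inferred from the ratio of adjusted to raw p at each rank. In the 96 genes listed in both paraquat comparisons and the interaction, the variance of the interaction equalled the sum of the others at 15.3 degrees of freedom, and the 11 genes listed in the genotype comparisons and the interaction gave 15.3 as well. Each standard error is the fold change over the t value of its p at that number, a step tested on simulated data. Members were matched to RefSeq genes by coordinates, and 37 of 39 matched exactly. Copies were sought with blastn 2.17.0. The calculations ran in Python 3.11.15 with scipy 1.17.1, pandas 2.3.3 and numpy 2.4.6, and matplotlib 3.10.9 drew the plots.

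Every member is named except 1, which is not reported here. Full statistics are given for genes changed in several comparisons, the 3 largest changes per direction and the lowest adjusted p. Members and lists were chosen with earlier results of these data known. Other thresholds, Holm adjustment and q-values were tried.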

Additional observations from a re-analysis of the deposited data

How the results depend on the processing

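The count of plastid genes changed by paraquat depended on the threshold. In WT it was 18, and it became 2 at an adjusted p under 0.01 (rbcL and psbN, both lower), 9 with a log2 change of at least 1, 0 with Holm adjustment, 30 at a Storey q under 0.05 (24 higher) and 37 at an adjusted p under 0.1. Without members under 200 bases or with a second plastid copy it was 13, of which 12 were higher. All changed genes that dropped out were under 200 bases. Copies in the nuclear or mitochondrial genome were no ground for leaving a member out, so rps2 was kept. In the libraries labelled trm4b-1 the count was 2. It became 1 at an adjusted p under 0.01, 1 with a log2 change of at least 1 and 0 with Holm adjustment. It was 0 without members under 200 bases or with a second plastid copy, and 3 at an adjusted p under 0.1 or a q under 0.05. The genotype comparisons and the interaction stayed at 0 plastid genes under these 6 alternatives. Fold changes of single members could not be rebuilt from other comparisons, because no plastid gene was listed in enough of them, except the interaction of psbN. Leaving out single replicates was not run, and depth could not be weighed, as the tables hold no values per sample. No paired analysis was possible because the columns carry no replicates.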
